A study of Canis lupus familiaris with 20 samples.

Results

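The experiment asked whether the retina answers ciliary neurotrophic factor (CNTF) alike with and without functional CNGB3, a subunit of the ion channel that light closes in cones, whose loss causes day blindness. The measure was a difference of differences: CNTF minus PBS within each of 5 CNGB3-mutant dogs against CNTF minus PBS within each of 5 normal dogs, over all 20 arrays of the series. Its members were these 20 arrays of 20, and the features compared were the probes marked well above background in at least 1 of the 4 groups, on 4 or more of its 5 arrays, which gave 29466 of 43603 probes. Of these, 29302 had enough values in both genotypes to be tested, and 10237 genes were read at the brightest of their probes.

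Right eyes received 12 µg of CNTF in the vitreous and left eyes PBS, so PBS eyes were injected too, and whole retinas were collected after 1 week. The mutant dogs were homozygous for the D262N missense allele of CNGB3 (CNGB3m/m). The normal group was not free of that allele: 4 dogs were carriers (CNGB3+/m) and only normal dog 3 was CNGB3+/+. All normal dogs were male, while mutant dogs 2, 3 and 5 were female. By the sample labels the normal dogs were 8.9 weeks old and the mutant dogs between 10.7 and 11.5 weeks, against about 11 months for both in the study's design text, so age and genotype cannot be told apart. In whole retina, fewer cells of a type and less RNA per cell cannot be told apart either.

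CNTF is a cytokine of the interleukin-6 family. It binds CNTFR, LIFR and the shared chain gp130, and JAK kinases then phosphorylate STAT3, which acts as a transcription factor. In the retina Müller glia are a main responding cell, and CNTF is known both to protect photoreceptors and to shorten their outer segments. Cones transduce light through an opsin, the transducin GNAT2, the phosphodiesterase PDE6C and the CNGA3 and CNGB3 channel, with ARR3 (cone arrestin) ending the signal. Rods use a parallel set that includes GNAT1, PDE6A, PDE6B, PDE6G, CNGA1, CNGB1 and SAG.

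The 75th percentile of signal, to which each array was scaled, lay between 291 and 592 intensity units, and 52.0 to 71.8% of probes were above background on an array. Slide followed group closely. Slide 1 held PBS eyes of normal dogs 1 to 4, slide 2 the PBS eyes of normal dog 5 and mutant dogs 1 to 3, slide 3 the PBS eyes of mutant dogs 4 and 5 with the CNTF eyes of normal dogs 1 and 2, slide 4 the CNTF eyes of normal dogs 3 to 5 and mutant dog 1, and slide 5 the CNTF eyes of mutant dogs 2 to 5. Normal dog 5 and mutant dog 1 were the only pair whose PBS eyes shared a slide and whose CNTF eyes shared another. The labelled tissue was borne out by a rod marker: SAG was saturated on all 10 PBS arrays. A missense allele leaves the transcript in place, so the CNGB3 level does not test the genotype labels.

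No probe had a difference of CNTF changes between genotypes at an adjusted p under 0.05 (limma, 0 of 29302, 0%). Other fits of the same contrast gave calls: 7 with dog as a random block, 69 with slide as a block in place of dog, 44 with slide and dog as blocks and 5205 with array weights. The lowest adjusted p was 0.103, shared by the probes with the lowest p, and 6105 probes lay under 0.11. At an unadjusted p under 0.05 there were 10157 probes (34.7%), of which 3990 had a higher change in mutants (13.6%) and 6167 a lower one (21%). The number of probes at that level was 6149 without normal dog 3 and 6174 without normal dog 5. The differences were modest in size. The median was -0.06 log2 units with a median standard error of 0.21, and 90% lay between the fifth percentile of -0.72 and the 95th of 0.95. For 17940 probes (61.2%) the 95% interval lay wholly within a 2-fold difference either way, and 1572 probes (5.36%) had an estimate beyond 2-fold.

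The CNTF changes themselves had the same direction in both genotypes for most genes with a large change. Among the 1227 genes that changed at least 2-fold in normal dogs at an adjusted p under 0.05, 1159 (94.5%) had the same sign in mutants, and 857 (69.8%) also passed there. Among the 857 genes chosen in the same way in mutants, 843 (98.4%) had the same sign in normal dogs and 744 (86.8%) passed. The median size of the change in the other genotype was 0.70 of that in normal dogs for the former genes and 0.94 of that in mutants for the latter. Choosing on 1 genotype inflates the change there, so both values are given. Of 588 genes that passed with at least 2-fold in both genotypes, 1 had opposite signs.

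**Figure D1:**
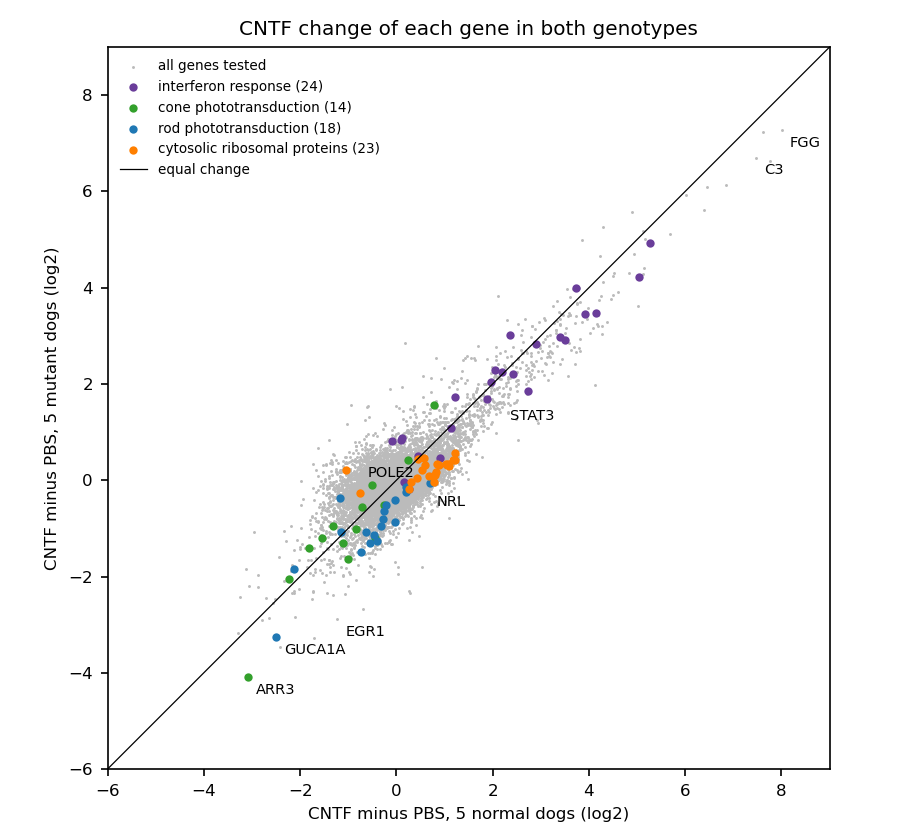
CNTF minus PBS (log2) of each of 10237 genes in 5 normal dogs (x axis) and 5 mutant dogs (y axis), with the line of equal change and 4 gene groups in colour. Most points with a large change lie near the line, from ARR3 at -3.09 and -4.09 to FGG at 8.00 and 7.28.

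By probe, 15006 passed for the CNTF change in normal dogs (51.2%, 6904 up) and 8467 in mutants (28.9%, 3409 up). With slide as a block in place of dog these counts were 1148 and 800, and with slide and dog as blocks 0 and 47. Only slide 3 held both PBS and CNTF eyes, the PBS eyes of mutant dogs and the CNTF eyes of normal dogs. Fits with slide could therefore hardly separate slide from CNTF, and the part of slide in the CNTF changes was not tested. By gene, 28.1% rose and 23.5% fell in normal dogs, and 13.6% rose and 16.7% fell in mutants, the shares to set beside the counts of group members below. Scaling to the median of each array instead gave 59.0% of calls up in normal dogs, against 46.0%, and 49.96% in mutants, against 40.3%. Counts of calls depend on the spread within each genotype and are not a test that the genotypes differ. Among dogs, the correlation of CNTF changes over probes ran from 0.66 to 0.90 within normal dogs, from 0.55 to 0.77 within mutants, and from 0.33 to 0.72 between a normal dog and a mutant, as a description of probes that share arrays.

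Mutants were also set against normal dogs in each eye separately. At an unadjusted p under 0.05, mutants and normal dogs differed at 10402 probes in PBS eyes (35.5%) and at 1875 in CNTF eyes (6.4%). At an adjusted p under 0.05 these were 60 probes (0.205%) and 18 (0.0614%). The PBS count was unstable to single dogs, running from 5 without mutant dog 2 to 7029 without normal dog 1. The order of the adjusted counts turned under some settings, with 2 probes in PBS eyes and 190 in CNTF eyes with slide as a block. They were 12 and 54 without the 3 dogs with dim arrays, and 3 and 5 with no filter. With a dog left out they were 18 and 96 without mutant dog 1 and 5 and 19 without mutant dog 2. Without mutant dog 4 they were 8 and 13, and without normal dog 3 they were 6 and 7. The unadjusted counts kept their order in all these settings, at 4973 and 1469 with slide as a block. Among the 10157 probes with an unadjusted p under 0.05 for the difference of changes, the genotype difference was the larger of both in PBS eyes at 8901 (87.6%), against 73.8% of all probes tested. The difference of changes is the genotype difference in CNTF eyes minus that in PBS eyes. The choice and the share thus read the same values, and the share is a description. The PBS eyes of 4 of 5 normal dogs were alone on slide 1, and the part of the slide in the genotype differences was not tested apart from genotype.

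The difference of changes also moved with 2 properties of the probes. With probes in 4 bins by GC content, from the lowest bin to the highest (medians 35 and 55% GC), the median difference ran from 0.12 to -0.29. From the dimmest to the brightest of 4 bins by mean signal it ran from 0.14 to -0.28. Normal dogs 3 and 5 stood apart: their median CNTF change ran from -0.30 and -0.31 in the lowest GC bin to 0.33 and 0.40 in the highest, while the other 8 dogs stayed between -0.25 and 0.08 in both. In a setting added after the data were seen, each array was centred by probe GC and level before the fit. No probe passed then either, the lowest adjusted p was 0.0652, and 8741 probes had an unadjusted p under 0.05. Median differences of gene groups are therefore given below also after this centring, for which the median over all genes was -0.02. Values named as with slide as a block come from a fit with slide in place of dog. That fit compares the genotypes only on slide 2 in PBS eyes and on slide 4 in CNTF eyes, the slides that held both. Its difference therefore rests on the PBS eye of normal dog 5 and the CNTF eye of mutant dog 1, set against the other eyes of those slides. With slide and dog as blocks it rests on normal dog 5 and mutant dog 1 alone.

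**Figure D2:**
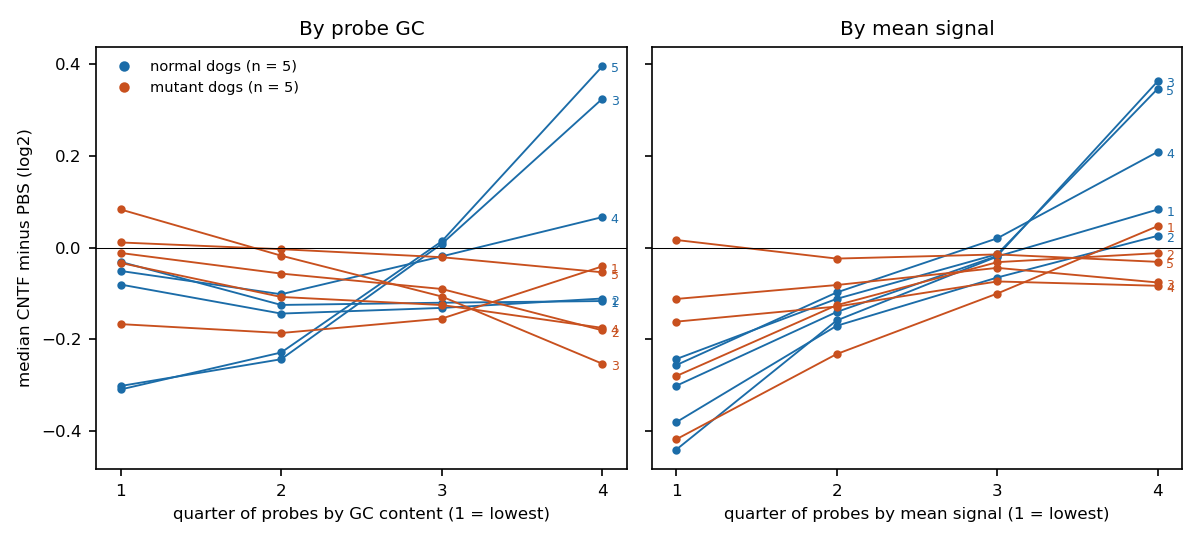
Median CNTF minus PBS (log2) in each of 10 dogs for 4 bins of the 29302 probes by GC content of the probe (left) and by mean signal (right), with dog numbers at the line ends. In the highest GC bin normal dogs 3 and 5 reach 0.33 and 0.40, and all 5 mutant dogs lie below 0.

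CNTF signalling came first among the groups fixed for description. Of 26 genes of the gp130 and JAK-STAT group, 13 were measured. The median difference was -0.01 (-0.03 after centring), beside -0.12 over all 10237 genes. None passed for the difference, and 0 were higher and 3 lower in mutants at an unadjusted p under 0.05, a level reached by 11.8% and 24.2% of all genes. STAT3, the transcription factor at the end of the CNTF receptor pathway, rose in normal dogs by 2.05, 1.93, 2.48, 1.92 and 2.54 log2 units in dogs 1 to 5. In the mutants its rises were 1.92, 1.34, 1.58, 1.67 and 1.48. All mutants lay below the lowest normal dog, the closest of them only just. The difference was -0.59 ± 0.18 (SE; 95% interval -0.97 to -0.20; adjusted p = 0.103), with an exact two-sided permutation p of 0.00794 over 10 dogs, the smallest that 5 against 5 dogs can give. That p says only that the dogs did not overlap, and in 5.34% of genes measured in all 10 dogs every mutant lay below every normal dog. The same share is to be set beside each gene below with a lower change in mutants and no overlap. The mutant minus normal level of STAT3 was 0.65 in PBS eyes (adjusted p = 0.056) and 0.06 in CNTF eyes.

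The other STAT3 group members with the lowest p were SOCS1, a feedback inhibitor of JAK kinases, with a difference of -0.50 ± 0.18, and STAT5B, with -0.54 ± 0.22 (SE). The ligand and receptors gave wide intervals. Endogenous CNTF had a difference of 0.40 (95% interval -0.18 to 0.98), CNTFR of -0.17 (-0.98 to 0.64) and LIFR of 0.08 (-0.84 to 1.01). CNTFR was above background on 1 to 4 of 5 arrays of a group, and LIFR changes ranged from -1.06 to 1.00 in normal dogs and from -1.31 to 0.49 in mutants. For the receptors a genotype dependence within these intervals was not detectable.

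Interferon response genes had closely similar medians in both genotypes, and antigen presentation genes less so. Of 24 measured interferon response genes, 19 rose in normal dogs and 19 in mutants, with median changes of 2.12 and 2.13 and a median difference of -0.12 (-0.07 after centring). Their first members by p were IFIT5, an antiviral RNA-binding protein, at 0.92 ± 0.37, IFI35 at -0.60 ± 0.27 and the GTPase MX2 at 0.51 ± 0.23 (SE). The MX2 difference turned to -0.19 with slide as a block. Dogs overlapped in each of these. In the 22 antigen presentation genes, which load and present peptides on MHC molecules, 21 rose in normal dogs and 20 in mutants, with a median difference of -0.40, or -0.22 after centring by GC and level and -0.86 with slide as a block. Of these, 17 had a difference below 0, and 10 were lower and 1 higher at an unadjusted p under 0.05. Over all genes, 24.2% were lower and 11.8% higher at that level.

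The antigen presentation genes with the lowest p were PSMB9, an immunoproteasome subunit, at -0.93 ± 0.24, the chaperone CALR at -0.77 ± 0.21 and the peptide transporter TAP2 at -0.79 ± 0.24 (SE). PSMB9 rested on 3 normal and 4 mutant dogs. CALR was at 0.46 when all its probes were taken by their median, so its probes disagreed. Among 22 complement and acute phase genes, 17 rose in normal dogs and 19 in mutants, and the median difference was -0.14 (-0.07 after centring). The fibrinogen chain FGG had rises of 8.18, 8.17, 8.53, 6.11 and 9.01 in normal dogs and 6.57, 7.96, 7.45, 8.30 and 6.10 in mutants. Normal dog 4 lay far below the other normal dogs and the groups overlapped. Its difference was -0.73 (95% interval -1.96 to 0.51), and that of complement C3 was -0.77 (-1.74 to 0.20). Haptoglobin HP was at 0.96 ± 0.36, but at 0.06 with slide as a block, and C1R at -0.47 ± 0.20 and C1QA at -0.57 ± 0.25 (SE).

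Immune cell markers were read next. The 20 measured microglia and macrophage genes had median changes of 2.89 in normal dogs and 2.67 in mutants, and 5 of them were saturated or below background throughout a group. Dogs' medians ran from 2.28 to 3.28 and from 2.50 to 3.46, so the genotypes overlapped, and the median difference was -0.10 (-0.08 after centring). LAPTM5, a lysosomal protein of leukocytes, rose by 3.596, 3.76, 5.31, 3.39 and 5.31 in normal dogs and by 3.42, 2.96, 3.29, 3.44 and 2.91 in mutants. Normal dogs 3 and 5 were the high ones. Its difference was -1.07 ± 0.39 (SE; limma adjusted p = 0.107), and it was -2.06 with slide as a block in place of dog and -1.88 with both blocks. The protease CTSS went the other way, at 0.93 ± 0.36, and the receptor CSF1R was at -0.57 ± 0.23 (SE).

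Among 12 measured lymphocyte genes none had an unadjusted p under 0.05 for the difference (0 of 12), beside 11.8% higher and 24.2% lower of all genes. Their median was -0.13 (-0.12 after centring). Granzyme GZMA gave -0.98 ± 0.60 with both PBS groups wholly below background, CD8A 0.52 ± 0.34 and CD3E 0.37 ± 0.27 (SE). The 21 chemokine and cytokine genes had a median of -0.18 (-0.16 after centring), led by CXCR4 at -1.15 ± 0.37, CXCL12 at -0.92 ± 0.33 and IL18 at 0.85 ± 0.32 (SE). CXCR4 was above background on 3 to 5 of 5 arrays of a group. Of the 21 chemokine and cytokine genes, 7 were saturated or below background throughout a group.

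Cone genes did not share a direction. Of 16 cone phototransduction genes 14 were measured, with 8 differences above 0 and 6 below and a median of 0.17 (0.07 after centring). In each genotype 11 fell, with median changes of -0.91 in normal dogs and -1.11 in mutants. The fall of PDE6C passed only in normal dogs and that of GRK7 only in mutants. In mutants 2 rose, GUCA1C by 1.56 and GNB3 by 0.42, and in normal dogs 0. The cone arrestin, red-sensitive opsin and rod transducin genes below were read by 60-base probes that cross an intron on the dog genome (canFam2), so these probes match spliced RNA. They are shown because ARR3 and GNB1 had dogs that did not overlap between genotypes and OPN1LW nearly so. The positions are chrX:57655235-57656851 (plus strand) for ARR3, chrX:125026905-125028198 (plus) for OPN1LW and chr5:59780952-59784015 (minus) for GNB1. GC contents were 45, 55 and 55%. No letters are capitalised, since no part of a probe was singled out.
ARR3: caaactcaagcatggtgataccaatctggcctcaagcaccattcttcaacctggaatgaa
OPN1LW: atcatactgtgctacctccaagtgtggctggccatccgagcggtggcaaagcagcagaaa
GNB1: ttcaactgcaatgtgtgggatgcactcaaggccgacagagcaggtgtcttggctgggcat

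ARR3, the arrestin that quenches activated cone opsin, changed by -3.50, -3.41, -2.59, -3.13 and -2.81 in normal dogs 1 to 5. The mutants had -3.94, -3.52, -4.23, -3.96 and -4.80. Every mutant lay below every normal dog, as in 5.34% of genes measured in all 10 dogs, and the permutation p restates this. The mean falls were 8.50-fold and 17.1-fold, and the difference was -1.005 ± 0.25 (SE; 95% interval -1.56 to -0.45; adjusted p = 0.103; exact permutation p = 0.00794). PBS levels were alike in both genotypes, at 4.54 and 4.53 on the scaled log2 signal, and the CNTF eyes were at 1.45 and 0.44. The mutant minus normal level of -1.01 in CNTF eyes did not pass (adjusted p = 0.245).

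OPN1LW, the long-wave cone opsin, changed by -0.997, -0.43, -0.22, -0.65 and 0.04 in normal dogs and by -0.70, -1.05, -1.30, -1.43 and -1.53 in mutants. Only mutant dog 1 reached into the range of normal dogs. The difference was -0.75 ± 0.22 (SE; adjusted p = 0.103; exact permutation p = 0.0159). KCNV2, a potassium channel subunit of photoreceptors, had a difference of -0.63 ± 0.19, or -0.31 after centring by GC and level, with dogs that did not overlap.

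The other cone genes leaned the opposite way. PDE6C, the catalytic phosphodiesterase subunit, fell in normal dogs by 0.50 and had a change of -0.10 in mutants. Its difference was 0.39 ± 0.17 (SE; adjusted p = 0.130). The inhibitory subunit PDE6H fell in both genotypes, by 1.55 and 1.21, with a difference of 0.35 ± 0.16. GNAT2 fell by 1.82 and 1.40, with a difference of 0.42 ± 0.26, and was above background on 3 of 5 CNTF arrays of mutants. The short-wave opsin OPN1SW fell by 2.23 and 2.05, and its difference was 0.18 (95% interval -0.58 to 0.94). CNGB3 itself fell by 1.32 in normal dogs and by 0.94 in mutants, in single dogs by -0.72, -0.89, -1.79, -1.46 and -1.74 and by -1.51, -0.80, -0.36, -1.02 and -1.02. The genotypes overlapped, and the difference of 0.38 had a 95% interval from -0.21 to 0.96.

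Rod phototransduction was the only group of 36 whose dog medians did not overlap between genotypes. The median change over its 18 measured genes was -0.60, -0.55, 0.01, -0.36 and -0.15 in normal dogs and -0.70, -0.84, -0.97, -0.85 and -1.03 in mutants. Normal dog 3 was the highest and the mutants lay close together. Of these genes 8 fell in normal dogs and 13 in mutants. For the difference none passed, 15 were below 0, and 12 had an unadjusted p under 0.05 in that direction, beside 24.2% of all genes. The median difference was -0.50, but -0.21 after centring by GC and level and between -0.19 and -0.23 under quantile normalization, normexp with quantile and the deposited values, against -0.59 with slide as a block and -0.52 for the same-slide pair of normal dog 5 and mutant dog 1. Of the 18, 5 were saturated or below background throughout a group.

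GNB1, the beta subunit of rod transducin, changed by -0.81, -0.56, 0.04, -0.46 and -0.22 in normal dogs and by -1.08, -1.25, -1.27, -1.43 and -1.27 in mutants. The mutants were all lower and varied little. The difference was -0.86 ± 0.17 (SE; 95% interval -1.23 to -0.49), and -0.47 after centring by GC and level. GNB1 was also among the 10 genes chosen for the lowest p of a lower change, so its interval and the lack of overlap are descriptions. PDE6G, the inhibitory subunit of the rod phosphodiesterase, had -0.68 ± 0.17, or -0.21 after centring, at a probe with 75% GC.

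The rod arrestin SAG had a saturated probe in all 20 eyes, so its values carry no reading. GNAT1, the alpha subunit of rod transducin, had a difference of -0.38 ± 0.16 with 4 mutant dogs measured. GUCA1A, the calcium sensor of photoreceptor guanylate cyclase, fell by 2.50 and 3.26, with a difference of -0.76 ± 0.30 (SE; adjusted p = 0.116). CNGA1, the rod channel subunit, fell by 2.12 and 1.85 over 4 normal and 3 mutant dogs, and its difference was 0.28 (95% interval -0.80 to 1.36).

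**Figure D3:**
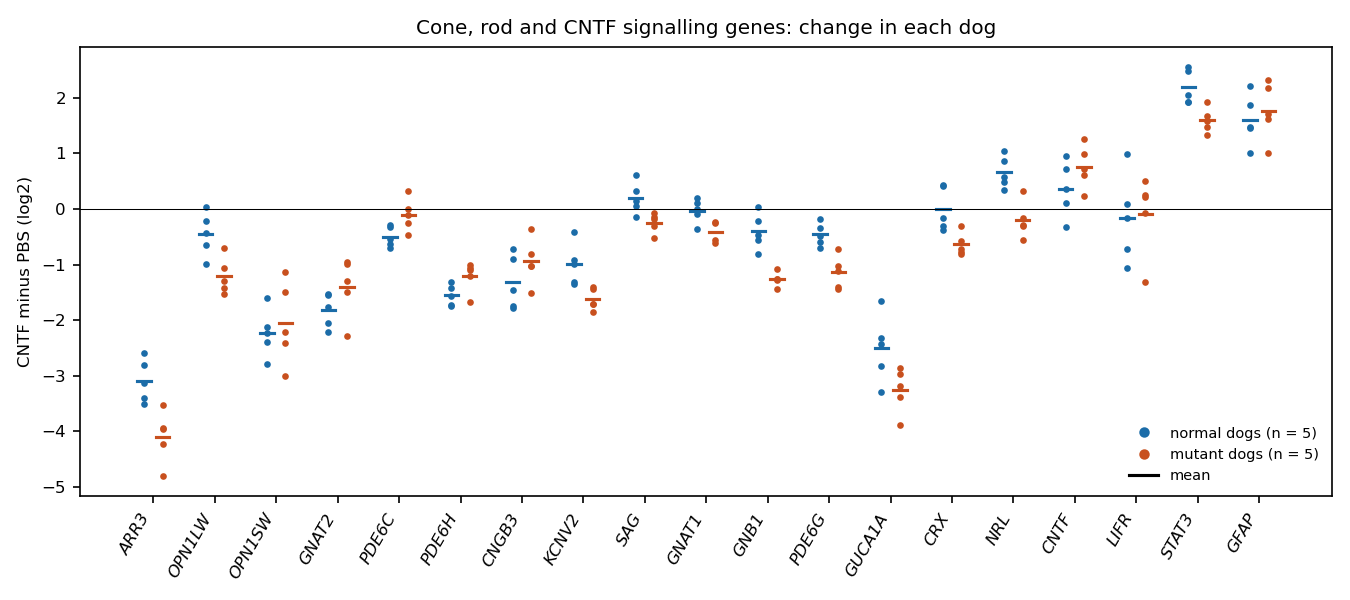
CNTF minus PBS (log2) in each normal dog (blue) and mutant dog (orange) for cone, rod and CNTF signalling genes, with short lines at the group means. ARR3, GNB1, NRL and STAT3 show no overlap between genotypes, while OPN1SW, GNAT2, CNGB3, LIFR and GFAP overlap widely. All SAG levels were saturated.

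Transcription factors that keep photoreceptor identity were also read. NRL, which directs rod fate, changed by 0.48, 0.34, 0.87, 0.57 and 1.04 in normal dogs and by 0.33, -0.29, -0.57, -0.31 and -0.15 in mutants. It rose in normal dogs by 0.66 (adjusted p = 0.0030) and had a change of -0.20 in mutants. The difference was -0.86 ± 0.20 (SE; 95% interval -1.29 to -0.43; exact permutation p = 0.00794), and -0.51 after centring, at a probe with 86.7% GC. That p says only that the dogs did not overlap, as in 5.34% of genes measured in all 10 dogs in this direction. CRX, which activates rod and cone genes, had a difference of -0.63 ± 0.20, or -0.30 after centring. THRB, a thyroid hormone receptor of cones, was at 0.51 ± 0.18 (SE), and at 0.19 with slide as a block. The median of the 7 measured factors was 0.00 (0.12 after centring).

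The 19 outer segment and cilium genes had a median difference of -0.05, or 0.22 after centring. Their first members were AIPL1, a chaperone of the phosphodiesterase, at -0.78 ± 0.20, and UNC119, a lipid-binding trafficking protein, at -0.67 ± 0.18 (SE). The dogs did not overlap for either gene. Cilium genes CEP290, at 1.29 ± 0.45, and SPATA7, at 0.88 ± 0.29 (SE), went the other way. At an unadjusted p under 0.05, 3 of the 19 genes were higher and 4 lower. That level was reached by 11.8% and 24.2% of all genes. The 14 visual cycle genes, which recycle retinoids, had a median of -0.44 (-0.30 after centring), with dogs from -0.76 to 0.76 in normal dogs and from -1.11 to -0.28 in mutants. Pigment epithelium genes, a list that shares RPE65, LRAT, RDH5 and RGR with it, moved with it by dog: normal dog 2 had medians of -0.76 and -1.37 in the visual cycle and pigment epithelium lists, normal dog 3 had 0.76 and 0.49, and mutant dog 4 had -1.11 and -1.54. The part of pigment epithelium in the visual cycle values was not tested. RDH8, a photoreceptor retinol dehydrogenase, was at -0.65 ± 0.18, RGR at -0.78 ± 0.23 over 3 normal dogs and DHRS3 at -0.73 ± 0.26 (SE). All 3 were at -0.37 or nearer to 0 after centring.

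Glial genes came next. GFAP, the filament of reactive glia, rose by 1.60 in normal dogs and 1.76 in mutants, with a difference of 0.16 (95% interval -0.47 to 0.78) that was -0.02 under quantile normalization and in the deposited values and -0.39 with slide as a block. It was above background on 2 to 4 of 5 arrays of a group. The 21 reactive glia genes had a median of -0.27 (-0.26 after centring), with CD44 at -0.73 ± 0.21, vimentin (VIM) at -0.76 ± 0.21 and tenascin TNC at -0.69 ± 0.22 (SE). VIM rose in normal dogs by 0.51 (adjusted p = 0.014) and had a change of -0.26 in mutants, without overlap over 5 normal and 4 mutant dogs.

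The 19 Müller glia genes had a median of -0.44, or -0.09 after centring, with 8 lower and 1 higher at an unadjusted p under 0.05. That level was reached by 24.2% and 11.8% of all genes. SOX2, a transcription factor that Müller glia retain, changed by 0.38, 0.31, 0.76, 0.45 and 0.72 in normal dogs and by 0.21, -0.08, -0.11, 0.26 and -0.13 in mutants. It rose in normal dogs, by 0.52 (adjusted p = 0.0022), and its difference of -0.49 ± 0.15 was -0.09 after centring. CRYM, which binds thyroid hormone, was at -0.98 ± 0.28, and NDRG2 at -0.82 ± 0.24 (SE). Mean CRYM levels were already far lower in mutants in PBS eyes, with values at the end of the text.

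Inner retinal neurons gave medians near that of all genes. Bipolar cell genes (16 measured) had a median difference of -0.03, which turned to 0.13 after centring, with the kainate receptor GRIK1 at 1.04 ± 0.33, GNAO1 at -0.38 ± 0.14 and CABP5 at -0.33 ± 0.14 (SE). CABP5 turned to 0.07 after centring, and GNAO1 to 0.12 when its probes were taken by their median. Amacrine genes (17) had 0.07 (0.15 after centring), with the peptides CCK at -0.73 ± 0.20 and SST at -0.64 ± 0.20 and the adaptor DAB1 at 0.52 ± 0.20 (SE). Horizontal cell genes (7) had -0.18 (-0.07 after centring), led by TPM3 at -0.44 ± 0.14, SEPT4 at -0.48 ± 0.20 and C1QL1 at -0.53 ± 0.23 (SE). Ganglion cell genes (12) had -0.08 (-0.07 after centring), led by synuclein SNCG at -0.58 ± 0.20, tubulin TUBB3 at -0.57 ± 0.22 and the neurofilament NEFM at -0.29 ± 0.15 (SE). NEFM turned to 0.06 after centring.

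Markers of blood vessels, which the retina itself holds, and of tissues that can be carried over with it were counted as well. The 15 pigment epithelium and melanocyte genes had dog medians from -1.37 to 0.49 in normal dogs and from -1.54 to -0.28 in mutants and a median difference of -0.21, which was -0.08 after centring and turned to 0.32 with slide as a block. SERPINF1 was at -0.92 ± 0.27 and the melanosome transporter SLC45A2 at -1.37 ± 0.75 (SE), while RGR is given above. In the 15 endothelium and pericyte genes the median was -0.20 (-0.13 after centring), with CSPG4 at -1.43 ± 0.39, ANGPT2 at -0.45 ± 0.14 and TAGLN at -0.68 ± 0.23 (SE). For CSPG4, 4 mutant dogs lay between -0.95 and -0.44 and mutant dog 1 at 0.98, within the normal range. Only HBE1 of 10 red cell genes was measured, at -0.62 ± 0.35. The 9 lens crystallins had a median of 0.33 (0.52 after centring), with 3 higher at an unadjusted p under 0.05, as were 11.8% of all genes. These were CRYBA2 at 0.52 ± 0.19, CRYBA1 at 0.65 ± 0.26 and CRYGD at 0.67 ± 0.29 (SE). The part of blood vessels and carried-over tissues in other differences was not tested.

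Genes of protein synthesis and folding are set beside the brightest of the 4 bins of all probes, whose median difference was -0.28 at a median scaled log2 level of 2.38. Median levels of these groups ran from 1.27 for the unfolded protein response to 6.04 for ribosomal proteins. The 23 cytosolic ribosomal protein genes had a median difference of -0.60, with 15 lower and 2 higher at an unadjusted p under 0.05. Of all genes, 24.2% were lower and 11.8% higher at that level. Of the 23, 5 were saturated or below background throughout a group. In normal dogs 19 rose and 2 fell, and in mutants 5 rose. Dog medians were 0.48, 0.39, 1.29, 0.72 and 1.08 in normal dogs and 0.50, 0.25, 0.18, 0.13 and 0.14 in mutants, with normal dogs 3 and 5 highest and mutant dog 1 within the normal range. After centring by GC and level the median was -0.22. RPS23 was at -0.75 ± 0.18 and RPL15 at -0.80 ± 0.22, while RPL10, below background on some arrays of 3 groups, was at 1.26 ± 0.27 (SE). Ribosomal proteins have many near-identical copies in a genome, so their probes may read more than 1 gene.

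The 17 aminoacyl-tRNA synthetases, which charge transfer RNAs, had a median of -0.40 (-0.15 after centring). Of these 13 rose in normal dogs and 1 in mutants. WARS changed by 0.45, 0.65, 1.32, 0.76 and 1.21 in normal dogs and by 0.27, 0.16, 0.16, 0.30 and 0.10 in mutants, without overlap, and its difference was -0.68 ± 0.18. YARS was at -0.61 ± 0.19 and GARS at -0.60 ± 0.19 (SE). The 23 ATF4 and unfolded protein response genes had a median of -0.45 (-0.14 after centring), with HERPUD1, an endoplasmic reticulum stress protein, at -0.59 ± 0.16 and the chaperone HSPA5 at -0.43 ± 0.13 (SE). HSPA5 was at -0.07 after centring. For the 14 heat shock genes the median was -0.24, which turned to 0.05 after centring and was -0.02 under quantile normalization, led by DNAJB1 at -1.01 ± 0.23, HSPA2 at -0.75 ± 0.20 and HSPA8 at -0.40 ± 0.13 (SE).

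Genes of energy metabolism were bright as well, with median levels of 3.64 for glycolysis and 3.81 for the respiratory chain. The 19 glycolysis and lactate genes had a median of -0.50, and -0.10 after centring. ENO2 was at -0.52 ± 0.16, the lactate transporter SLC16A1 at -0.51 ± 0.16 and PFKP at -0.60 ± 0.19 (SE). The 23 respiratory chain genes had -0.31, and -0.02 after centring, the same as all genes, led by NDUFV1 at -0.87 ± 0.23, SDHA at -0.51 ± 0.14 and COX4I1 at -0.55 ± 0.18 (SE). Other metabolic groups followed. The 22 cholesterol genes had -0.27 (-0.21 after centring), led by TM7SF2 at -0.55 ± 0.17, the regulator SREBF2 at -0.64 ± 0.22 and MVD at -0.56 ± 0.19 (SE). The 19 antioxidant genes had -0.32 (-0.15 after centring), with TXNIP at -0.84 ± 0.20, HMOX2 at -0.61 ± 0.18 and GPX3 at -0.69 ± 0.22 (SE).

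Activity-linked and growth genes held some of the largest single differences. EGR1, an immediate early transcription factor, changed by -1.82, -1.65, -1.07, -0.995 and -0.60 in normal dogs and by -3.10, -2.38, -2.55, -3.18 and -3.24 in mutants. It fell in both genotypes, 2.34-fold and 7.41-fold, and every mutant lay below every normal dog. The difference was -1.66 ± 0.26 (SE; 95% interval -2.24 to -1.08; adjusted p = 0.103), and it was -1.83 after centring, -1.86 with slide as a block, -1.91 in male dogs and -2.50 in the same-slide pair. EGR1 was among the 10 genes chosen for the lowest p of a lower change, and 5.34% of genes measured in all dogs share its lack of overlap in that direction. Its mutant minus normal level was 1.04 in PBS eyes (adjusted p = 0.068) and -0.62 in CNTF eyes (adjusted p = 0.914). MYC rose in both genotypes, by 2.16 and 1.41, with a difference of -0.75 ± 0.18, and IER2 was at -1.11 ± 0.31 (SE). The median of the 21 immediate early genes was -0.10 (-0.03 after centring).

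BDNF, a neurotrophin, changed by -0.17, 0.51, -0.11, 0.69 and 0.41 in normal dogs and by 0.82, 1.28, 1.16, 1.18 and 0.58 in mutants. It rose in mutants, by 1.00 (adjusted p = 0.00050), and the dogs overlapped only at mutant dog 5. Its difference was 0.74 ± 0.21 (adjusted p = 0.103). The growth factor binding protein IGFBP2 was at -1.23 ± 0.33 and the GDNF receptor GFRA1 at -0.60 ± 0.16 (SE), both without overlap. The median of the 20 growth factor genes was -0.04 (-0.07 after centring). Apoptosis genes (25) had -0.20 (-0.17 after centring), led by BAD at -0.80 ± 0.20, TRADD at -0.51 ± 0.18 and DIABLO at -0.52 ± 0.18 (SE), and DIABLO was at 0.02 when its probes were taken by their median. Cell cycle genes (26) had -0.23 (-0.17 after centring), led by CDK2 at -0.87 ± 0.22, cyclin CCNE1 at -0.69 ± 0.18 and MCM2 at -0.82 ± 0.27 (SE).

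Of the 12 clock genes, with a median of -0.11 (-0.02 after centring), CLOCK was at 1.13 ± 0.27 but below background on all CNTF arrays of normal dogs and all PBS arrays of mutants, RORA at 0.84 ± 0.24, and AANAT, which makes the melatonin precursor, at -0.79 ± 0.20 (SE). The 13 ribbon and synaptic vesicle genes had -0.44 (-0.12 after centring). The syntaxin STX1A gave -1.57 ± 0.44 without overlap of dogs, but CNTF eyes were above background on only 2 of 5 normal and 1 of 5 mutant arrays. SV2B, a synaptic vesicle protein, was at -0.60 ± 0.17 and the calcium channel subunit CACNA2D4 at -0.44 ± 0.12 (SE).

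**Figure D4:**
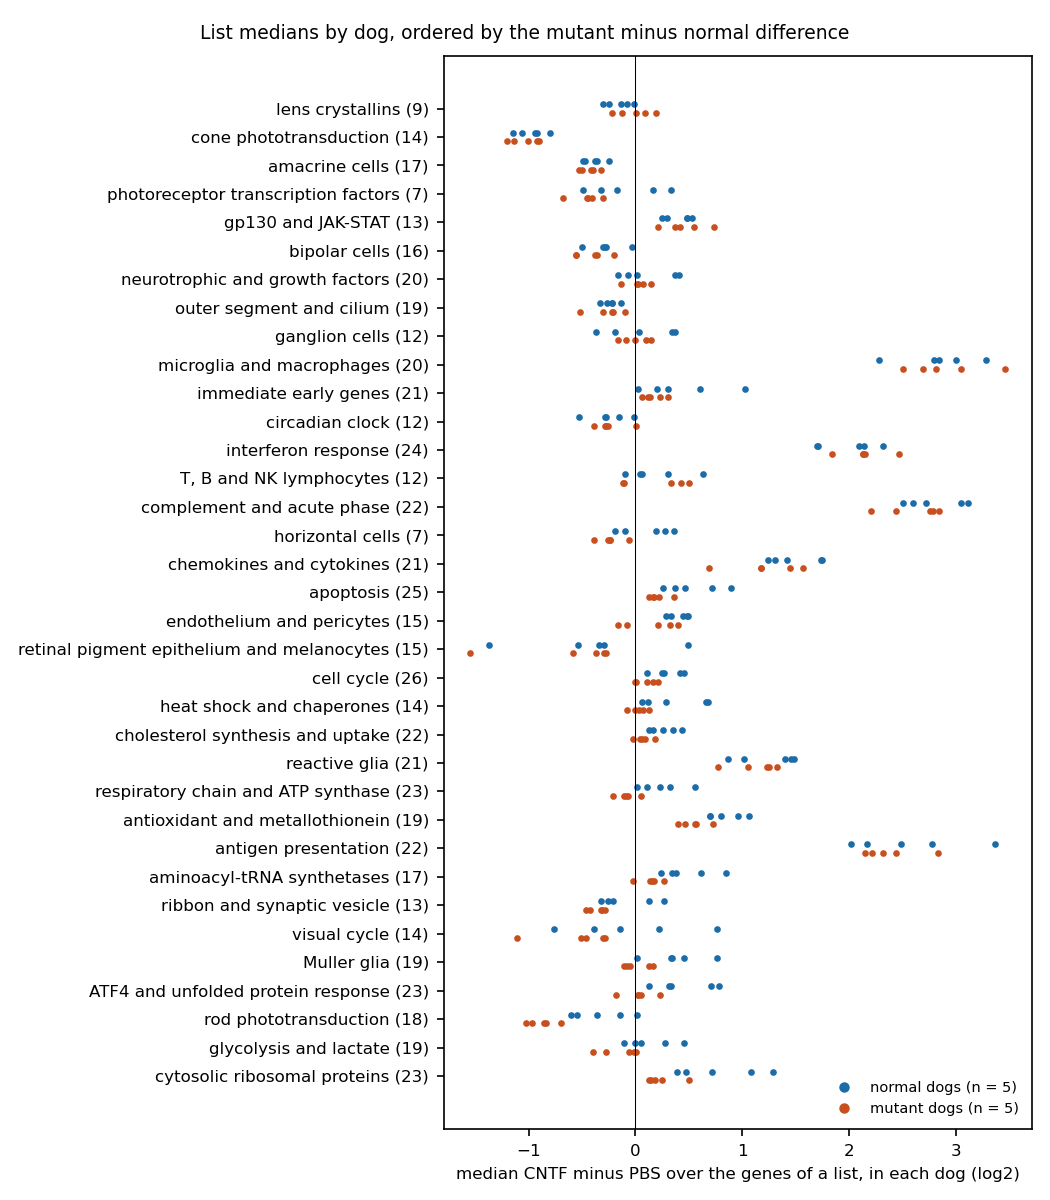
Median CNTF minus PBS (log2) over the measured genes of each group (number in brackets) in each normal dog (blue) and mutant dog (orange), ordered by the median difference; groups with at least 3 measured genes are drawn. Rod phototransduction is the group without overlap, and the interferon, antigen presentation, complement and microglia groups lie far to the right of 0 in all 10 dogs, while the lymphocyte group lies on both sides of 0.

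Among genes above background in every group, the lowest p with a higher change in mutants belonged to GPCPD1, POLE2, MED13L, TSSK1B, SPINK5, CRIPT, AGPS, AKNAD1, SVIP and GNPTAB. All 10 had dogs that did not overlap, a pattern found in 1.16% of genes measured in all dogs, but the p that chose them reads the same values. GPCPD1, a glycerophosphocholine phosphodiesterase, changed by -0.67, -0.79, -1.35, -1.02 and -1.23 in normal dogs and by -0.21, 0.05, -0.08, -0.34 and 0.12 in mutants. It fell in normal dogs (adjusted p = 7.3e-05), while its change of -0.09 in mutants did not pass (adjusted p = 0.61), and its difference was 0.92 ± 0.17 (SE; 95% interval 0.55 to 1.29).

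POLE2, a DNA polymerase epsilon subunit, fell in normal dogs by 0.77 and had a change of 0.41 in mutants, a difference of 1.18 ± 0.23. In the CNTF eyes it was higher in mutants by 1.505 (adjusted p = 0.010). MED13L, of the Mediator kinase module, rose in both genotypes, by 0.41 and 1.31, a difference of 0.91 ± 0.18, and also stood higher in mutant CNTF eyes, by 0.85 (adjusted p = 0.021). CRIPT, which binds a postsynaptic scaffold, fell by 0.53 in normal dogs and rose by 0.48 in mutants, a difference of 1.01 ± 0.21. GNPTAB, which tags lysosomal enzymes, rose in mutants by 1.31, with a difference of 1.02 ± 0.23 (SE). The differences of the remaining TSSK1B, SPINK5, AGPS, AKNAD1 and SVIP lay between 0.70 and 0.87.

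With a lower change in mutants the genes were C9H17orf97, EGR1, PVRL2, POR, MGAT3, FGGY, GNB1, PIGU, SLC39A3 and CMTM7. Their dogs did not overlap either, as in 5.34% of genes measured in all dogs. C9H17orf97, an uncharacterised open reading frame, changed by 0.35, 0.05, 0.60, 0.74 and 0.72 in normal dogs and by -0.61, -0.41, -0.69, -0.49 and -0.42 in mutants. It rose in normal dogs and fell in mutants (adjusted p = 0.0047 and 0.0052), with a difference of -1.02 ± 0.16 (SE; 95% interval -1.37 to -0.67). POR, the electron donor of microsomal cytochromes P450, likewise rose by 0.50 and fell by 0.48, and MGAT3, a glycosyltransferase, rose by 0.38 and fell by 0.43.

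PVRL2 (nectin-2), a cell adhesion protein, rose in normal dogs by 0.80 and had a change of 0.01 in mutants, a difference of -0.79 ± 0.15. SLC39A3, a zinc transporter, changed by 1.91, 0.47, 1.27, 0.78 and 1.40 in normal dogs and by -0.13, 0.04, -0.14, 0.09 and -0.14 in mutants, a difference of -1.22 ± 0.24 (SE). The remaining FGGY, PIGU and CMTM7 had differences between -0.92 and -0.68. Of these 20 genes 18 had the larger genotype difference in PBS eyes, and each kept its direction in all alternative settings in which it was measured. Both are descriptions, since the genes were chosen on the same values and the alternatives refit the same arrays or a part of them.

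**Figure D5:**
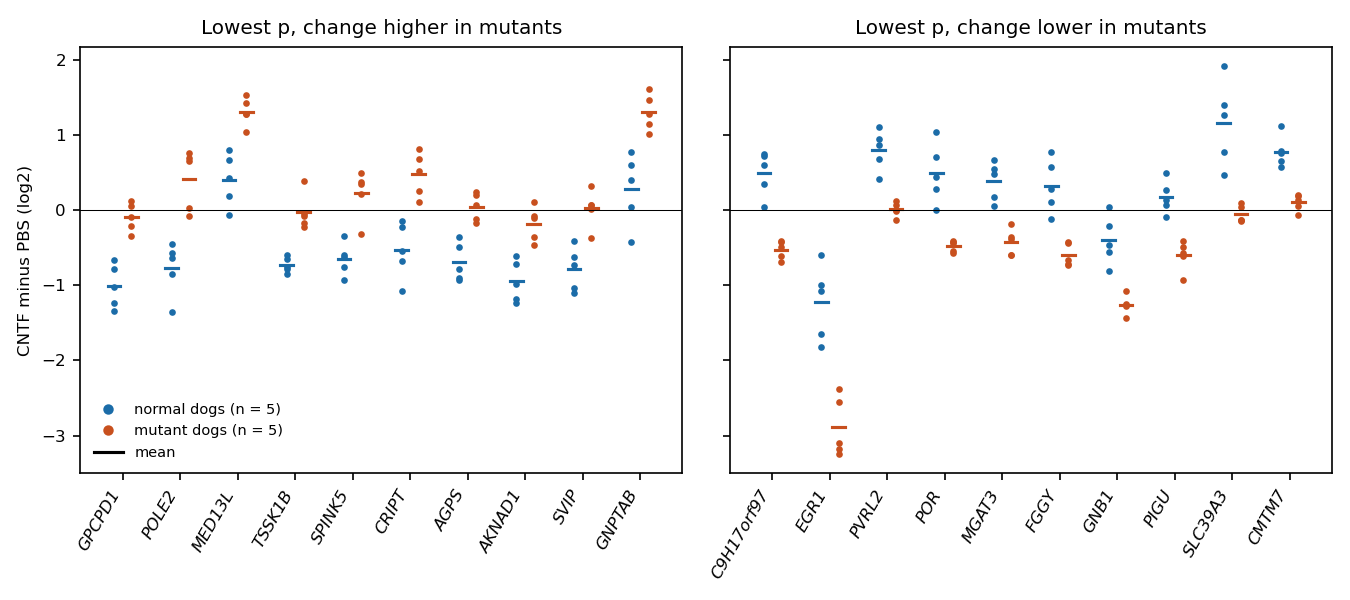
CNTF minus PBS (log2) in each normal dog (blue) and mutant dog (orange) for the 10 genes of lowest p with a higher change in mutants (left) and the 10 with a lower one (right), with short lines at group means. The genotypes do not overlap in any panel column, and EGR1 has the widest gap between means, at -1.23 and -2.89.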

How the data were processed

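Each retina was hybridised to its own single-colour Agilent array, with 100 ng of RNA as input and integrity numbers above 8 per the labels' protocols. The deposited array files hold signal intensity from Agilent Feature Extraction 9.5.3.1, background-subtracted and detrended per the file headers and not scaled between arrays, with saturation and background marks. The deposited matrix holds log2 values and was used only as an alternative. The submitters' processing notes name Partek 6.4, and further steps are not given in the sources used here. From the values, its columns share 1 distribution (median 6.185), its direction follows the intensity, and slopes against log2 intensity ran from 0.95 to 1.08.

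Control and outlier spots were left out and spots of a probe averaged. Log2 signals minus each array's 75th percentile were fitted with limma 3.58.1 in R 4.3.3 (lmFit and eBayes, two-sided), with a block for dog and separate CNTF terms for the genotypes. Dogs with a missing eye value dropped out for that probe. Benjamini-Hochberg adjustment ran over all tested probes, and a call is an adjusted p under 0.05. Genotypes within PBS or CNTF eyes were compared without the block. Eyes were paired by number because both eyes of each dog were used, per the labels' protocols: deviations of a dog's eyes correlated at -0.15 to 0.69 over all probes and at 0.17 to 0.73 over the 500 most variable. On data simulated for the difference, 37 of 100 probes with a difference of 1 log2 unit and 88 of 100 with 2 were called, and 5 of 29254 with none. The simulated noise was independent between probes and alike in all dogs, without slide, GC or array-wide effects. These rates may therefore not hold for the real arrays. Exact permutation tests used scipy and figures matplotlib. The number of arrays limits the precision.

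Gene names came from the files and the gene table of UU_Cfam_GSD_1.0, for 16359 kept probes, and positions (canFam2) from the files. Exons and untranslated parts were not assigned. The genes described are the 10 of lowest p in each direction, the first 3 members by p of 36 gene lists, and targets of the study. IL6ST, SOCS3 and CNGA3 had no kept probe. The genes of lowest p were taken among those above background in every group, on 4 or more of 5 arrays each. Members and lists were chosen with earlier results of these data known. Numbered dogs are separate animals of a research colony, so p-values cover the spread between dogs. Alternatives covered scaling, background correction, filters, blocks, slide, sex, array weights and each dog left out.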

Additional observations from a re-analysis of the deposited data

Results flagged for a closer look

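Among 271 sets of 4 or 5 dogs tested for a dog far from the rest (137 genes, each genotype apart), 10 were flagged, fewer than the 1 in 20 that chance gives. In mutant dog 1, the CNTF change was 0.52 for STAT5B (others -0.31 to -0.09), 0.98 for CSPG4 (others -0.95 to -0.44) and 0.29 for NDUFV1 (others -0.62 to -0.36). Mutant dog 2 had -0.048 for CD44 (others 0.24 to 0.28) and -1.24 for SLC16A1 (others -0.85 to -0.70). Mutant dog 3 had -5.09 for STX1A (others -3.06 to -2.47), and mutant dog 4 had -0.35 for SREBF2 (others 0.25 to 0.40). Mutant dog 5 had 0.39 for TSSK1B (others -0.22 to -0.06) and 0.67 for DAB1 (others -0.02 to 0.11). The one normal dog was number 4, with 6.11 for FGG (others 8.17 to 9.01).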

How the results depend on the processing

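No probe passed for the difference under quantile, median-of-array, normexp or deposited values, either filter, no replicate block (0 calls, 6225 unadjusted against 10157), slide as a random block, male dogs only, all probes of a gene, without the 4 dogs on slide 3, or centring by GC and level. It gave 7 calls with dog as a random block, 69 with slide as a block, 44 with slide and dog as blocks, 5205 with array weights, and 1 each without the 3 dogs with dim arrays and with cyclic loess. The last pair and the centring were chosen after seeing the data. In 61 of the 69 and 34 of the 44 the CNTF eye of mutant dog 1 was the highest of 20 arrays. That eye was the only mutant CNTF eye on a slide with normal CNTF eyes. The weights were highest for arrays of normal dog 4 (2.70) and mutant dog 5 (2.56). Leaving out a dog gave 0 to 4 calls, the 4 without mutant dog 1. Over these alternatives the lowest adjusted p ran from 4.2e-09 to 0.653. The cause was not tested.

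The CNTF change in normal dogs (15006 calls) gave 1148 with slide as a block, 0 with slide and dog (4774 unadjusted) and 8678 with slide random. In mutants (8467) it gave 800, 47 and 4701, and 4749 without slide 3 dogs, 2632 in males (fewer dogs) and 5183 without dim dogs. Only slide 3 held eyes of both treatments, so fits with slide could hardly separate slide from CNTF. Genotype in PBS eyes (60) gave 461 with quantile, 1798 with median scaling, 1194 with normexp, 3 with no filter, 2951 with probes above background on all 20 arrays, 2 with slide, 8429 without slide 3 dogs, 29 in males, 12 without dim dogs, 35 with cyclic loess and 28 centred, and 5 to 7029 with a dog left out. In CNTF eyes (18) it gave 31 with normexp, 5 with no filter, 10 above background on all 20, 190 with slide, 4 without slide 3 dogs, 54 without dim dogs and 9 with cyclic loess, and 1 to 96 with a dog left out (1 without normal dog 5, 96 without mutant dog 1).

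Of the values of named genes under alternatives, 3755 kept direction and side of the threshold, 93 newly passed, 41 moved and 32 changed sign. In males CNTFR was 0.13, LIFR -0.38 and OPN1SW -0.38. LIFR was -0.43 without dim dogs. With a dog left out LIFR ran from -0.14 to 0.39, CNTFR from -0.50 to 0.0042 and OPN1SW from -0.055 to 0.42. GFAP was -0.023 with quantile, -0.018 in deposited values, -0.39 with slide, -0.51 with slide and dog and -0.013 with slide random. With slide and dog, GNAT2 was -0.23, THRB -0.061, MX2 -0.40, HP -0.51 and CD8A -0.25. With slide, MX2 was -0.19 and CD8A -0.28, and CD8A was -0.018 without slide 3 dogs. With cyclic loess SAG, saturated throughout and without a reading, was 0.027, NEFM 0.043 and HSPA8 0.042. Centred, CABP5 was 0.067 and NEFM 0.056. By all probes of a gene, CALR was 0.46, GNAO1 0.12 and DIABLO 0.016.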

Other observations

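Some genes differed between genotypes in both eyes. At an adjusted p under 0.05 in PBS and in CNTF eyes there were 6 probes, 5 of them with a gene symbol, all with the same sign in both eyes. They were chosen after their values were seen. ACOX2, a peroxisomal oxidase of branched fatty acids and bile acid precursors, was lower in mutants by 1.54 in PBS eyes (adjusted p = 0.010) and by 1.198 in CNTF eyes (adjusted p = 0.044), while it rose with CNTF in both genotypes, by 2.43 and 2.77, and its difference of changes was 0.34 ± 0.24 (SE). Its PBS levels were -1.61, -1.23, -0.89, -0.34 and -0.90 in normal dogs and -2.83, -2.49, -2.05, -2.35 and -2.94 in mutants, without overlap.

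HOMER2, a postsynaptic scaffold protein, was lower in mutants by 0.89 and 0.97, with 3 of 5 mutant CNTF arrays above background. TKTL1, a transketolase-like protein, was lower in mutants at a probe above background on 1 of 5 mutant arrays in either eye, so the size of its difference is not given. TKTL1 levels in PBS eyes ran from -2.46 to 0.86 in normal dogs and from -6.73 to -2.44 in mutants, most of them below background, and mutant dog 5 was the highest of the mutants in both eyes. A brighter TKTL1 probe differed by only -0.54 in PBS eyes (adjusted p = 0.076), so the probes disagree. MSRB3, a methionine sulfoxide reductase, was higher in mutants by 0.62 and 0.78, and CCSER2 by 0.57 and 0.66 at 1 of its probes. In PBS eyes all 5 mutant dogs lay above all 5 normal dogs for both. CRYM was not among the probes that passed in both eyes. It was lower in mutant CNTF eyes by 5.13 (adjusted p = 0.021). Mean CRYM levels were 1.94 and 3.11 in PBS and CNTF eyes of normal dogs, against -2.21 and -2.02 in mutants. Its genotype difference in PBS eyes did not pass.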
